A study of Mus musculus with 78 samples.

Results

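The 10 genes described here set up the trophectoderm, the outer layer of the blastocyst, or carry the Hippo signal that controls it. They are the trophectoderm transcription factors Cdx2, Gata3 and Tfap2c, the DNA-binding factor Tead4, its coactivators Yap1 and Wwtr1 (the gene of TAZ), the kinases Lats1 and Lats2, and the upstream regulators Amot and Nf2. They were taken by Entrez gene number from a list of genes with these roles. They are 10 of the 16956 genes listed in the 4-cell or the 8-cell gene table. All 10 are listed among the 15342 genes of the 8-cell stage, and 9 of them, all but Cdx2, among the 15218 genes of the 4-cell stage.

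The study dissociated mouse preimplantation embryos into single blastomeres and sequenced full-length cDNA of each one. Every embryo came from a cross of mice with the Gt(ROSA)26Sortm1(CAG-Brainbow2.1)Cle allele and mice with the transgene Tg(CAG-cre/Esr1*)5Amc, so that each held a single Brainbow cassette and a single tamoxifen-inducible Cre gene, both driven by the broadly active CAG promoter. All embryos, at both stages, were exposed to 4-Hydroxytamoxifen for 2 h as 2-cell embryos at 46 hpi and then cultured in KSOM medium, and the design has no untreated embryos. The labels give 36 blastomeres from 9 embryos at the 4-cell stage and 31 blastomeres from 4 embryos at the 8-cell stage, while the gene tables hold 24 and 26 columns. No column name points to 1 embryo or lineage in the labels, and 5 columns of the 8-cell table are named NA. Each stage was therefore handled as a single sample, blastomeres were not taken as replicates, no lineages were compared, and no difference between stages was tested.

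Values are FPKM, the fragments of a gene per kilobase of its transcript and per mega (M) of all fragments counted. The total behind them was 6.88 M to 16.9 M fragments for a 4-cell blastomere and 2.34 M to 21.8 M for an 8-cell one. A 4-cell blastomere had 3009 to 8276 genes above an FPKM of 1 (median 7155) and an 8-cell blastomere had 3548 to 8078 (median 6773). At each stage 3 blastomeres had fewer than 5000 such genes. Among markers of the preimplantation embryo, Dppa3 and Dppa5a, genes of the early embryo and of pluripotent cells, were above 1 in all 24 and all 26 blastomeres. Tdgf1 was above 1 in 23, Pou5f1 in 21 and Zfp42 in 20 of the 24 4-cell blastomeres and all 3 in every 8-cell blastomere, while Zscan4c was above 1 in 3 and in 0. Of 9 oocyte and polar body markers, 3 were above 1 in at least 50% of the 4-cell blastomeres and 1 in at least 50% of the 8-cell ones. The last was Zp3, a gene of the egg coat, above 1 in 22 of 24 and 26 of 26. Of 10 genes that mark cumulus and granulosa cells, the somatic cells around the egg, 8 were above 1 in no 4-cell blastomere and 8 in no 8-cell blastomere, and Foxl2, Fshr, Ptx3, Tnfaip6, Inhba and Col1a2 were not listed. One marker went against this, Amhr2, above 1 in every blastomere, with a median of 36.6 at the 4-cell stage and 41.5 at the 8-cell stage. Cyp19a1, the aromatase gene, was above 1 in 2 4-cell blastomeres and was not listed at the 8-cell stage, where Amh was above 1 in 1 blastomere.

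The Hippo pathway is a kinase cascade. Where it is active, as in the inner cells of the morula, NF2 and AMOT at cell junctions help the LATS kinases to phosphorylate YAP and TAZ, which then stay in the cytoplasm. Where it is off, as in the polarized outer cells, YAP and TAZ enter the nucleus, join TEAD4 and turn on Cdx2 and Gata3. This control acts on proteins and their place in the cell, which RNA levels do not show.

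TEAD proteins bind the letters GGAATG, read here on both strands of RefSeq promoter windows of GRCm38.p6, from 250 bases before to 50 bases after a gene's start. Of all 32851 windows, 14.7% hold these letters. Promoter windows were found for 8 of the 10 genes, not for Tead4 and Tfap2c. Of the 8 genes 3 (Yap1, Wwtr1 and Lats2) hold a match, in 4 of the 11 windows of the 8 genes (36.4%). Among these 4 windows the 2 of Wwtr1 hold the same site, which is thus counted for each of its starts. The matches of both coactivator genes are printed because their proteins work through TEAD4. They are given as the 30 bases around each match, read along the minus strand, with the match in capitals. Distances are from the transcript starts of the promoter table, some of which lie inside the whole gene positions given below.
Yap1, chr9:8004720-8004749, centred 138 bases before that start: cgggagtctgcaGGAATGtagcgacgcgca
Wwtr1, chr3:57576029-57576058, centred 133 or 167 bases before its 2 starts: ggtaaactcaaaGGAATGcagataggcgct
The match of Lats2 lies 7 bases after such a start. A match describes only the letters, and no binding was measured in these samples.

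Positions below are whole protein-coding genes of GRCm38.p6, the assembly behind mm10. Tead4 (chr6:128227143-128300813), the DNA-binding partner that the trophectoderm requires, was the most uniformly present gene of the pathway. It was above 1 in 24 of 24 4-cell and 26 of 26 8-cell blastomeres, which gives an exact binomial 95% interval of 85.8% to 100% at the 4-cell stage and 86.8% to 100% at the 8-cell stage (these intervals and all others below cover counting error only). Its level ran from 1.03 to 172 at the 4-cell stage (median 47.1) and from 24.7 to 164 at the 8-cell stage (median 70.6). Its mean FPKM stood at percentile 88.8 of the genes listed at the 4-cell stage and at percentile 92.0 at the 8-cell stage. The lower quartile was 30.1 and then 44.5, and the upper quartile 78.7 and then 106, so that the 8-cell values were higher along the distribution, while the ranges overlapped. Of the 24 4-cell values 5 lay below every 8-cell value, the lowest at 1.03 and 4.79. The value of 1.03, from 42 fragments, was found in a blastomere with 3699 genes above 1.

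Tfap2c (chr2:172545678-172558622), an AP-2 factor that acts upstream of Cdx2, was as widespread. It was above 1 in 23 of 24 4-cell blastomeres (95.8%, interval 78.9% to 99.9%) and in 26 of 26 at the 8-cell stage. The 4-cell median was 54.1, with 0 as the lowest and 115 as the highest value. In 8-cell blastomeres the median was 59.4 and the range 16.5 to 115. The single 0 belonged to the 4-cell blastomere with the fewest genes, 3009, and the next lowest 4-cell value was 21.2. For a gene of its length 3 fragments give an FPKM of 0.0580 to 0.142 in the 4-cell libraries, far below that value.

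Gata3 (chr2:9857078-9887953), a zinc finger factor that works beside Cdx2 in the trophectoderm, was at 0 in many blastomeres. It was above 1 in 7 of 24 4-cell blastomeres (29.2%, interval 12.6% to 51.1%), at 0 in 15, and at 22.1 in the highest. It was above 1 in 11 of 26 8-cell blastomeres (42.3%, interval 23.4% to 63.1%), at 0 in 12, with a median of 0.238 and a highest value of 27.9. The intervals overlapped widely. The highest 4-cell value came from the blastomere with 3009 genes, where it rested on 688 fragments, and the next was 11.3.

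Cdx2 (chr5:147300900-147307249), the homeobox factor that defines the trophectoderm, was the rarest of the 10. No 4-cell value is listed. In these tables every listed gene is above 0 in at least 1 blastomere, so that 0 of 24 blastomeres is taken for the 4-cell stage, which allows a share of up to 12.5% (3 of 24, the limit used here for a count of 0). A level of 3 fragments would have given an FPKM of 0.0829 to 0.203 there. At the 8-cell stage 4 of 26 blastomeres had Cdx2 fragments (15.4%, interval 4.36% to 34.9%) and the other 22 were at 0. The 4 values were 48.2, 15, 12.5 and 4.70, from 1301, 570, 420 and 185 fragments, so that no intermediate value near 0 was seen. The blastomere with 48.2 had 4263 genes above 1, and those with 15, 12.5 and 4.70 had 7673, 6537 and 7542. In these 4 blastomeres Tead4 was at 94.2, 60.7, 92.1 and 43.1 and Yap1 at 2.08, 10.6, 21.1 and 4.35, in the same order. Amot was at most 0.0292 in all 4. Gata3 was above 1 in 1 of them, and in 10 other 8-cell blastomeres, which had no Cdx2 fragments.

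**Figure D1:**
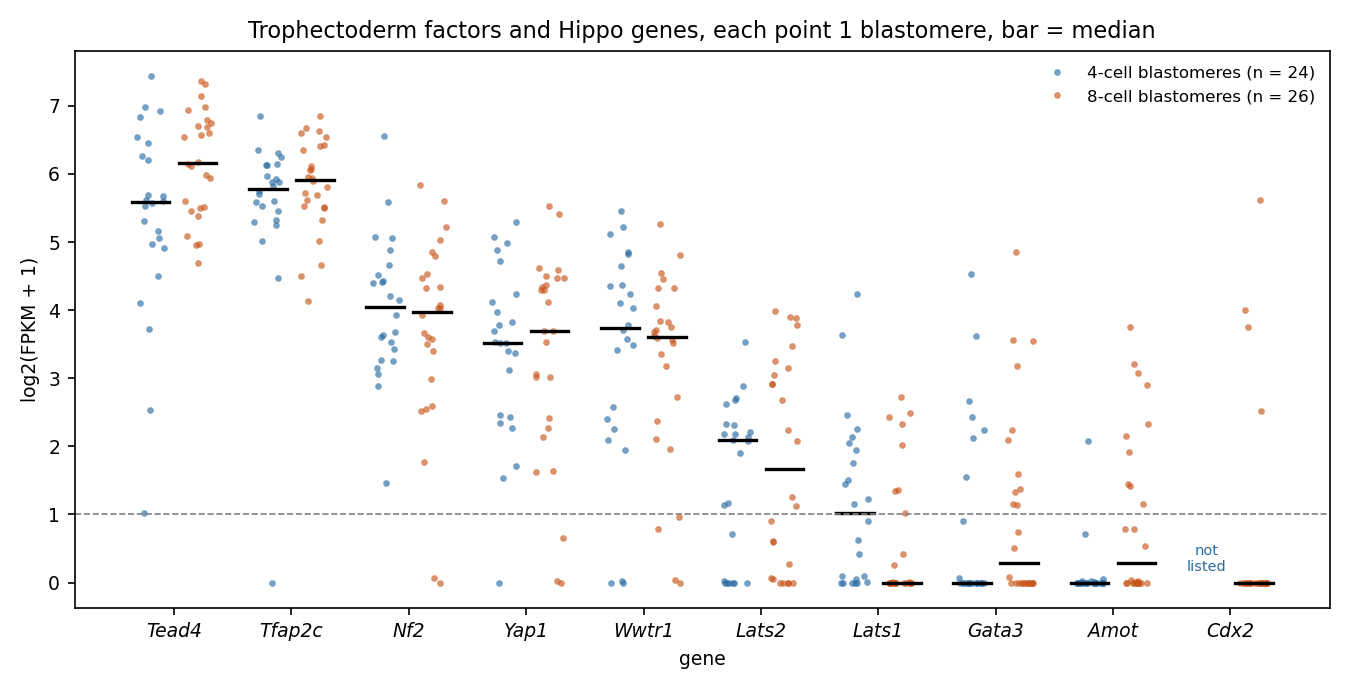
Level of each gene in every blastomere, as log2(FPKM + 1), with 24 4-cell blastomeres in blue and 26 8-cell blastomeres in orange. Black bars are medians and the dashed line is an FPKM of 1. Tead4 and Tfap2c sit high at both stages, Lats2, Lats1 and Gata3 spread from 0 to clear levels, and Amot has 1 4-cell point and 10 8-cell points above the line.

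The coactivators Yap1 (chr9:7931999-8004638) and Wwtr1 (chr3:57455644-57575910) had like levels at both stages. Yap1 was above 1 in 23 of 24 4-cell blastomeres, with a median of 10.5 and a range of 0 to 38.3. Among 8-cell blastomeres it was above 1 in 23 of 26, with a median of 11.9 and a range of 0 to 45.1. Its only 4-cell 0 came from a blastomere with 4939 genes, in which Wwtr1 was at 16.3. Wwtr1 was above 1 in 21 of 24 (87.5%, interval 67.6% to 97.3%) and 22 of 26 (84.6%, interval 65.1% to 95.6%) blastomeres. Its median was 12.4 at the 4-cell stage, over a range of 0 to 42.7, and 11.2 at the 8-cell stage, over a range of 0 to 37.5.

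Every blastomere had at least 1 of the coactivators. Both were above 1 in 20 4-cell blastomeres, Yap1 alone in 3, Wwtr1 alone in 1 and neither in 0. In the 8-cell embryos both were above 1 in 19, Yap1 alone in 4, Wwtr1 alone in 3 and neither in 0. With Tead4 above 1 throughout, the RNA of the DNA-binding factor and of at least 1 coactivator was found together in 24 of 24 and 26 of 26 blastomeres.

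The LATS kinases, which phosphorylate YAP and TAZ, were lower and patchier than their targets. Lats2 (chr14:57689662-57746212) was above 1 in 16 of 24 4-cell blastomeres (66.7%, interval 44.7% to 84.4%), with a median of 3.25 and a highest value of 10.5. At the 8-cell stage it was above 1 in 15 of 26 (57.7%, interval 36.9% to 76.6%), with a median of 2.32, and 4 blastomeres exceeded the highest 4-cell value, the top one at 14.8. Its upper quartile was 3.99 at the 4-cell stage and 7.73 at the 8-cell stage, so that the 8-cell values spread further at a lower median.

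Lats1 (chr10:7681200-7716461) was above 1 in 12 of 24 4-cell blastomeres (interval 29.1% to 70.9%) and in 8 of 26 at the 8-cell stage (30.8%, interval 14.3% to 51.8%). Its median was 1.04 at the 4-cell stage and 0 at the 8-cell stage. The 2 highest 4-cell values, 17.9 and 11.4, came from the 2 blastomeres with the fewest genes, 3009 and 3699, and the third was 4.48. The highest 8-cell value was 5.59. Low counts were common for this gene, and 7 4-cell blastomeres lay above 0 but at or below 1. At a limit of 3 fragments in place of an FPKM of 1, a limit chosen after the values were seen, Lats1 was present in 75% of 4-cell and 38.5% of 8-cell blastomeres, and Lats2 in 70.8% and 80.8%. For Lats2 the direction between the stages thus turned with the limit, as it also did at an FPKM of 5 (20.8% and 42.3%).

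Lats1 and Lats2 were both above 1 in 8 4-cell blastomeres, Lats1 alone in 4, Lats2 alone in 8 and neither in 4. Among 8-cell blastomeres both were above 1 in 5, Lats1 alone in 3, Lats2 alone in 10 and neither in 8. Unlike the coactivators, the kinases were thus both at or below 1 in a part of the blastomeres at each stage.

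Nf2 (chr11:4757639-4849544), the gene of Merlin, which recruits LATS kinases to the membrane, was above 1 in 24 of 24 4-cell and 24 of 26 8-cell blastomeres. Its median was 15.5 at the 4-cell stage, over a range of 1.74 to 93.3, and 14.8 at the 8-cell stage, over a range of 0 to 56.3. The highest value, from 6996 fragments, was in the 4-cell blastomere with 3699 genes that also held the lowest Tead4 and the highest Yap1 of the 4-cell stage. Of the 2 8-cell blastomeres without Nf2 above 1, one had the smallest total, 2.34 M fragments, and had Yap1, Lats1 and Lats2 at 0 as well, with Tead4 at 126 and Wwtr1 at 27. The other had 4963 genes and an Nf2 value of 0.0464.

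Amot (chrX:145446424-145505966), the angiomotin gene, whose protein holds YAP at junctions of inner cells and activates LATS, was rare at the 4-cell stage. It was above 1 in 1 of 24 4-cell blastomeres (4.17%, interval 0.105% to 21.1%) and in 10 of 26 8-cell blastomeres (38.5%, interval 20.2% to 59.4%). At the 4-cell stage the highest values were 3.22 and 0.646, and 18 blastomeres were at 0. The highest 8-cell values were 12.5, 8.30 and 7.42, and 10 blastomeres were at 0. The mean FPKM was 0.164 at the 4-cell stage and 1.98 at the 8-cell stage, and 6 of 26 8-cell blastomeres lay above the highest 4-cell one. As Amot is X-linked, Y-linked transcripts were set beside it. Of the 10 8-cell blastomeres with Amot above 1, 5 were also above 1 for Eif2s3y, a Y-linked translation factor gene, and 5 were not. Of the 16 with Amot at or below 1, 7 were above 1 for Eif2s3y and 9 were not.

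**Figure D2:**
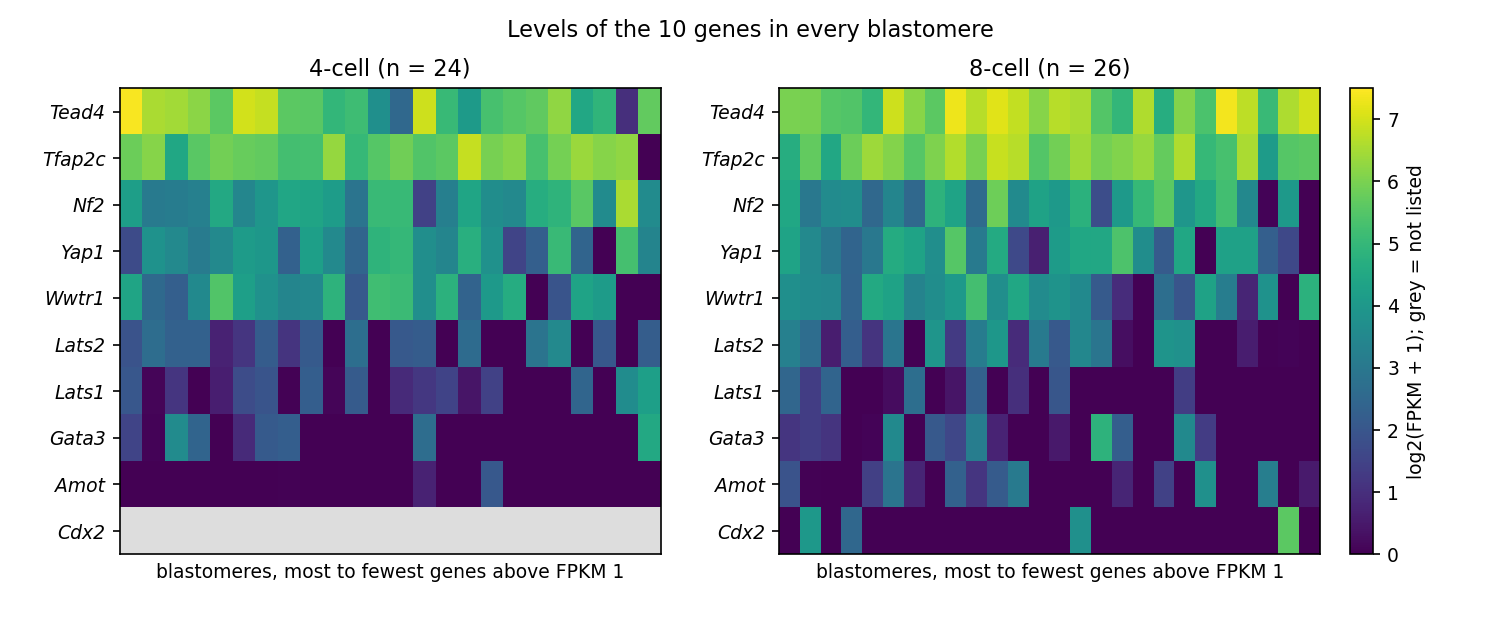
Level of the 10 genes in each blastomere, as log2(FPKM + 1), with blastomeres ordered from most to fewest genes above an FPKM of 1 (8276 to 3009 at the 4-cell stage, 8078 to 3548 at the 8-cell stage). Grey marks Cdx2 at the 4-cell stage, which is not listed. Values of 0 for Tfap2c and Yap1 at the 4-cell stage lie at the gene-poor end.

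The genes were set side by side, which FPKM allows because it is per length. In the mean of log2(FPKM+1) the 4-cell order was Tfap2c (5.53), Tead4 (5.36), Nf2 (4.03), Yap1 (3.41), Wwtr1 (3.35), Lats2 (1.54), Lats1 (1.17), Gata3 (0.84) and Amot (0.12). No neighbours in this order differed by more than the spread of their difference between blastomeres (1 SD). The 8-cell order was Tead4 (6.15), Tfap2c (5.83), Nf2 (3.67), Yap1 (3.30), Wwtr1 (3.17), Lats2 (1.78), Gata3 (1.05), Amot (0.98), Lats1 (0.63) and Cdx2 (0.61). Only Tfap2c and Nf2 stood apart there, with a mean difference of 2.16 (SD 1.40) and Tfap2c higher in 26 of 26 blastomeres.

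Above 1 in at least 50% of the blastomeres (12 of 24 or 13 of 26) were 7 of the 9 genes listed at the 4-cell stage, against 45.2% of all genes listed, and 6 of 10 at the 8-cell stage, against 41.2%. The order of the stages turned with the limit, since at an FPKM of 0.1 or at 3 fragments the numbers were 7 and 8. Without the gene-poor blastomeres Lats1, which was at exactly 12 of 24, dropped out and 6 remained at the 4-cell stage. Above 1 in every blastomere were Tead4 and Nf2 at the 4-cell stage, where 8.88% of all genes were, and Tead4 and Tfap2c at the 8-cell stage, where 11.4% were. A 4-cell blastomere had 5 to 8 of the genes above 1 (median 6) and an 8-cell blastomere 3 to 9 (median 7). Nf2 and at least 1 LATS kinase were above 1 together in 20 4-cell and 18 8-cell blastomeres. With Amot required too, the number was 1 at the 4-cell stage and 8 at the 8-cell stage.

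The stages were compared by the difference in mean log2(FPKM+1), 8-cell minus 4-cell, over the 10780 genes listed in both tables and above 1 in at least 5 of the 50 blastomeres. Cdx2 is not among them, and Amot passed this filter only through the 8-cell stage. None of the 9 genes compared reached a difference of 1 in size, which 14.3% of all genes did (5.75% higher at the 8-cell stage and 8.53% higher at the 4-cell stage). Amot came closest, with 0.86, from a mean of 0.12 to 0.98. Tead4 followed with 0.79, from 5.36 to 6.15. Tfap2c (0.30), Lats2 (0.24) and Gata3 (0.21) were slightly higher at the 8-cell stage, and Yap1 (-0.11), Wwtr1 (-0.18), Nf2 (-0.37) and Lats1 (-0.53) slightly lower. Single blastomeres moved most of these small differences. Without the 4-cell blastomere with 3009 genes, where Tfap2c was at 0, the difference of Tfap2c was 0.06. Without the 8-cell blastomere with a Gata3 value of 27.9 that of Gata3 was 0.06. Leaving out 1 blastomere also brought Lats2 down to 0.15, Wwtr1 to -0.06 (an 8-cell blastomere with 4263 genes) and, without the 8-cell blastomere with 3548 genes, Nf2 to -0.22 and Yap1 to 0.02, across 0.

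The median of the 9 differences was 0.21, against -0.07 over all genes compared, and without the 4-cell blastomere with 3009 genes it was 0.06. For each gene the ranges of the stages overlapped and the difference was smaller than the spread between blastomeres, which was 0.94 for Amot and 1.15 for Tead4 (pooled SD). On the scale of the mean FPKM the 8-cell level of Amot was 12.1 times the 4-cell level, that of Tead4 1.41 times and that of Lats1 0.424 times. A single 4-cell blastomere, with an Amot value of 3.22, decided the size of the first ratio, which was 63.4 without it, against a 4-cell mean of 0.0312. By the difference of medians Amot stood at 0.29, Tead4 at 0.57 and Lats1 at -1.03. For Lats2 the sign depended on the summary, since its difference of medians was -0.42. Leaving out the gene-poor blastomeres brought Lats1 to -0.24, Nf2 to 0.01, Tead4 to 0.57, Tfap2c to 0.20 and Yap1 to 0.08, while Gata3 (0.45), Lats2 (0.45) and Wwtr1 (-0.43) moved further from 0 and Amot stood at 0.81. How far their number of genes accounts for these differences was not tested.

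**Figure D3:**
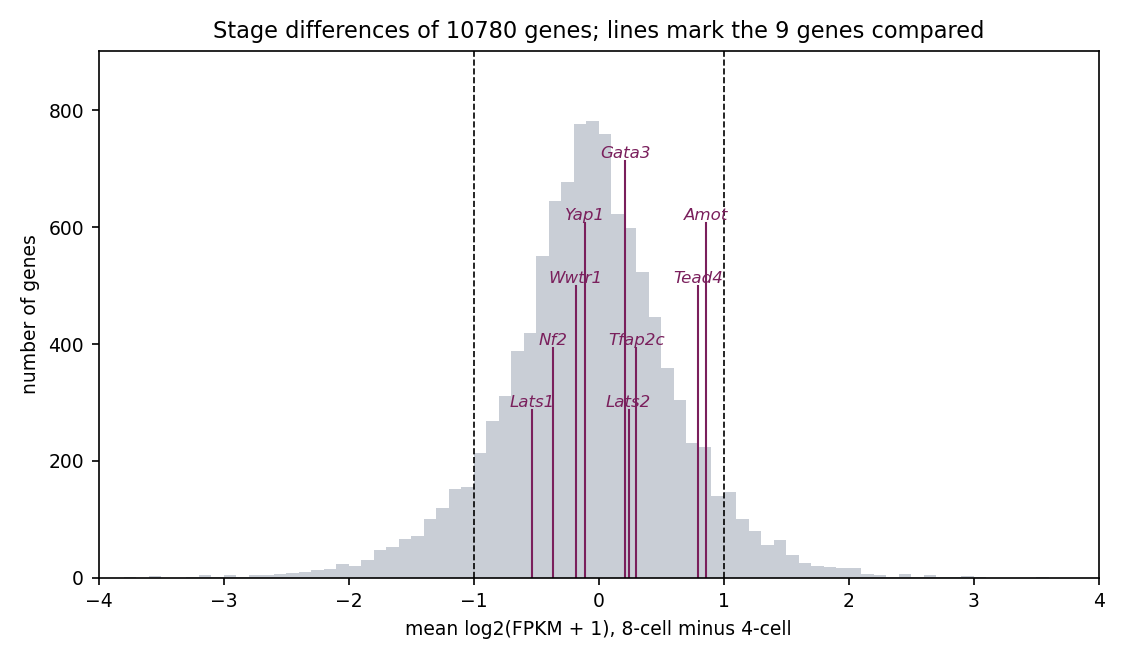
Differences between the stages in mean log2(FPKM + 1) for 10780 genes (grey histogram, the axis ends at 4 on both sides) and for the 9 genes compared (lines, whose heights only separate the names). Dashed lines mark a difference of 1 in size, which Amot (0.86) and Tead4 (0.79) approached and no line crossed.

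Correlations between the genes above 1 in at least 50% of a stage's blastomeres were near the level of all pairs of such genes. All rho values are Spearman's, over 24 or 26 blastomeres that share embryos and differ in depth and in number of genes. They are given as a description. For the 7 genes above 1 in at least 50% of the 4-cell blastomeres the 21 pairs had a median rho of -0.04, and 1 pair reached 0.5 in size, against 6.17% of all pairs of such genes. For the 6 genes at the 8-cell stage the 15 pairs had a median of 0.13, and none reached 0.5, against 3.1% of all pairs. Both shares are near the background, at these small numbers of pairs.

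The pair past 0.5 was Wwtr1 and Lats2 at the 4-cell stage, with a rho of -0.67. Of the 24 blastomeres 2 had no Wwtr1 and 6 had no Lats2, and none lacked both. Leaving out 1 blastomere at a time kept this rho between -0.82 and -0.63, and without the gene-poor blastomeres it was -0.82. Pearson's r of log2(FPKM+1), however, was -0.47, short of 0.5. At the 8-cell stage the same pair had a rho of 0.08, a difference that was not tested. Tead4 and Nf2 came next at the 4-cell stage with -0.50 (Pearson's r -0.67), and their 8-cell rho was 0.12. Yap1 and Wwtr1, the paralogous coactivators, had rho values of -0.04 at the 4-cell stage and -0.23 at the 8-cell stage. Among the 6 genes compared at the 8-cell stage the highest value was 0.49, for Tfap2c and Yap1, and the lowest -0.27, for Wwtr1 and Nf2.

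Pairs with a gene above 1 in fewer blastomeres rest on many ties at 0. Of 15 such pairs at the 4-cell stage 3 passed 0.5 in size, against 1.9% of all such pairs of listed genes, and of 30 at the 8-cell stage 2 did, against 1.44%. The pairs are not independent, since 4 of these 5 hold Gata3, and by Pearson's r 1 of the 5 passed 0.5. Gata3 and Tead4 had a rho of 0.71 at the 4-cell stage, where Gata3 was at 0 in 15 blastomeres, and -0.12 at the 8-cell stage. Their 4-cell Pearson's r was 0.44. Also at the 4-cell stage, Gata3 had a rho of -0.54 with Tfap2c (Pearson's r -0.71) and of 0.56 with Amot (Pearson's r -0.02). Gata3 and Yap1 had a rho of 0.53 at the 8-cell stage (Pearson's r 0.39). Wwtr1 and Amot had a rho of 0.66 at the 8-cell stage, where Amot was at 0 in 10, and a Pearson's r of 0.48. Tead4 at the 4-cell stage and Lats1 at the 8-cell stage also moved with the number of genes above 1 in a blastomere, with rho values of 0.53 and 0.55. Given the number of genes, the partial rho at the 4-cell stage was -0.74 for Wwtr1 and Lats2 and -0.40 for Tead4 and Nf2.

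**Figure D4:**
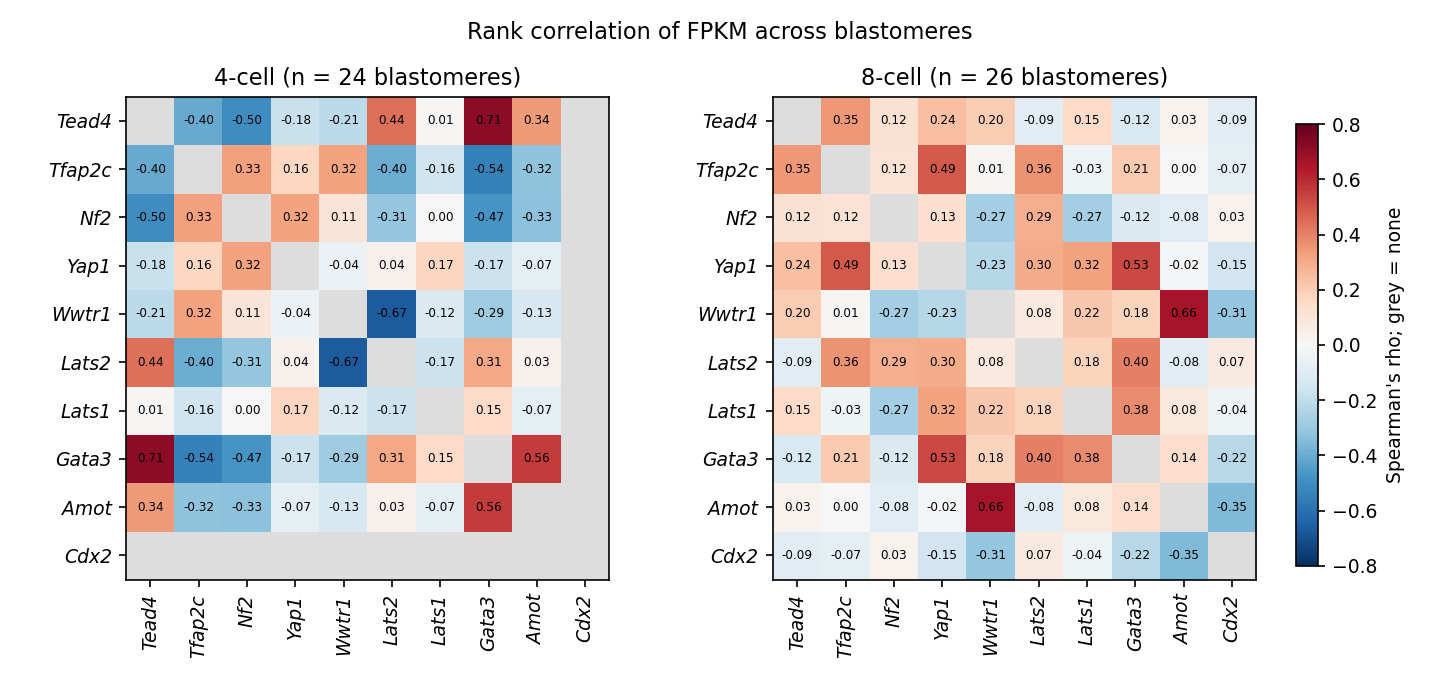
Spearman's rho for each pair of the 10 genes across 24 4-cell blastomeres and 26 8-cell blastomeres. Red is positive, blue is negative, and grey marks the diagonal and Cdx2 at the 4-cell stage. Wwtr1 and Lats2 are the strongest negative pair at the 4-cell stage (-0.67) and near 0 at the 8-cell stage (0.08).

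For each gene above 1 in at least 50% of a stage's blastomeres, the genes of the same kind with the highest rho to it were looked up, among 6877 genes at the 4-cell stage and 6324 at the 8-cell stage. The highest rho per gene was 0.67 to 0.83 at the 4-cell stage and 0.71 to 0.80 at the 8-cell stage, as the top of a search over so many genes. At the 4-cell stage Tead4 was nearest to Noto (0.81), a homeobox gene, Galk1 (0.79) and Jtb (0.77). Wwtr1 was nearest to Sdf2l1 (0.83), Epcam (0.77), which encodes an epithelial adhesion molecule, and Cdca8 (0.77). Yap1 was nearest to Polq (0.78), Trim33 (0.76) and Haspin (0.73), and Tfap2c to Cd2bp2 (0.83), Rnf41 (0.81) and Ddx31 (0.79). Lats1 was nearest to Zfp974 (0.67), Rbbp8 (0.65) and Trim6 (0.62), Lats2 to Rnf7 (0.73), Bet1l (0.67) and Bex6 (0.66), and Nf2 to Adam17 (0.76), Ccpg1 (0.74) and Cecr2 (0.73).

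At the 8-cell stage the nearest genes of each were other ones. Tead4 was nearest to Lemd3 (0.71), Zfp710 (0.62) and Saysd1 (0.61), and Tfap2c to Csnk1e (0.76), Ribc1 (0.69) and Fbxo9 (0.63). Yap1 was nearest to Snord92 (0.72), Arid1a (0.72), a chromatin remodelling subunit, and Atf1 (0.71), and Wwtr1 to Gm5617 (0.76), Pramel48 (0.64) and Ovol1 (0.64), an epithelial transcription factor. Lats2 was nearest to Slc30a5 (0.80), Prkab1 (0.75) and Xylb (0.72), and Nf2 to Gorasp1 (0.80), Rad23b (0.75) and Atg9a (0.72). None of the genes that entered these searches was among the nearest 3 of another. Amot, too sparse to enter, had a rho of 0.66 with Wwtr1 at the 8-cell stage, above the second nearest gene of Wwtr1.

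Around these genes, the rest of the pathway was followed in lists, each read against the share of all genes past a difference of 1 (5.75% higher at the 8-cell and 8.53% higher at the 4-cell stage). All 7 core kinases and adaptors were compared, Lats1 and Lats2 among them. Their median difference was 0.24, the value of Lats2, and 1 gene was past 1. This was Mob1b, a LATS cofactor, at -1.76, with a median FPKM of 17.4 at the 4-cell stage and 3.68 at the 8-cell stage. Of the upstream and junctional regulators, which include Amot and Nf2, 14 of 17 were compared, with a median of -0.13. Amotl2, an angiomotin relative, was past 1 upward (1.67), above 1 in 8 of 24 and 16 of 26 blastomeres, and Rassf1, a scaffold gene, was past 1 downward (-1.17).

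Of the coactivators and DNA-binding partners 6 of 7 were compared, with a median of 0.34, and Vgll4, whose protein competes with YAP for TEAD, was past 1 (1.27). It was above 1 in 11 of 24 4-cell and 19 of 26 8-cell blastomeres, with medians of 0.515 and 15.9. Of 5 known YAP targets 3 were compared, with a median of 0.47, and Amotl2, which is also on this list, was the 1 past 1. Of the 12 genes listed as trophectoderm transcription factors 7 were compared, with a median of 0.30, the value of Tfap2c. The 7 include Gata3, Tfap2c and Tead4. They also include Sox21 (-0.37), whose place among such factors was not examined. Here Hand1 was past 1 downward (-1.20), with a median FPKM of 94.2 at the 4-cell stage and 54.7 at the 8-cell stage.

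Among the structural genes of the trophectoderm some differed widely. Of 8 genes 6 were compared, with a median difference of 1.54, and 3 were past 1, all higher at the 8-cell stage. Krt8 and Krt18, which pair to form the keratin filaments of simple epithelia, differed by 2.87 and 3.50, and Dab2, an endocytic adaptor gene, by 2.66. Krt8 was above 1 in 9 of 24 4-cell and 21 of 26 8-cell blastomeres, with medians of 0 and 43.3. Krt18 was above 1 in 7 and 21, with medians of 0 and 29.8, and Dab2 in 9 and 24, with medians of 0 and 21.3. The others compared were Aqp3 (0.42), Fgfbp1 (0.16) and Atp1b1 (-0.56). At the same stage Cdx2 was above 1 in 4 of 26 blastomeres and Gata3 in 11.

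Of the inner cell mass factors 6 of 7 were compared, with a median of 0.55. Pou5f1, the pluripotency factor that Cdx2 opposes in the trophectoderm, was past 1 (2.0), with a median FPKM of 41.5 at the 4-cell stage and 110 at the 8-cell stage, and so was Esrrb (1.24). Sall4 (0.68), Carm1 (0.42), Nanog (-0.54) and Klf4 (-0.55) were not. Among the embryo markers Tdgf1 (1.44) and Zfp42 (1.88) were past 1 too, and with Pou5f1 this made 3 of the 5 compared. Of 9 oocyte and polar body markers 8 were compared, with a median of -0.54. Only 2 of them were past 1, Gdf9 (-1.06) and Nlrp5 (-1.10), both lower at the 8-cell stage. The sex-linked genes had none past 1, with Eif2s3y at 0.54 and Ddx3y, an RNA helicase gene, at 0.16.

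**Figure D5:**
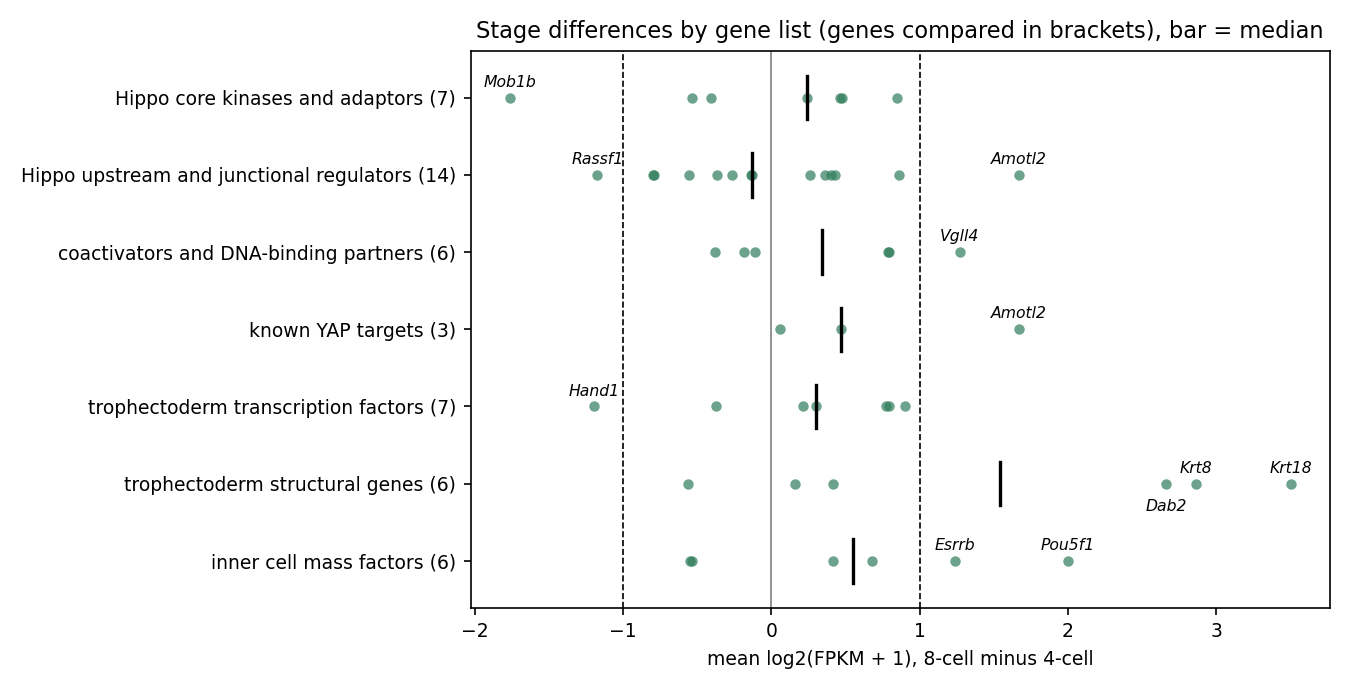
Differences between the stages in mean log2(FPKM + 1) for the genes of 7 lists, with 1 point per gene, the number of genes compared in brackets and black bars for medians. Dashed lines mark a difference of 1 in size. The structural genes of the trophectoderm have the highest median (1.54), through Krt18 (3.50), Krt8 (2.87) and Dab2 (2.66).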

How the data were processed

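The authors aligned the reads to mm10 with STAR 2.5.1b, counted unique alignments on Refseq genes with HTSeq, and deposited a gene table per stage in FPKM. Which lengths and totals entered FPKM was not stated. For genes with a single RefSeq transcript (GRCm38.p6), taking the exon length less 1 base per exon gave a whole-number total for each blastomere, with 79.6% to 85.3% of their values whole within 0.01 fragments. With these totals, the length of each of the 10 genes was taken as the smallest at which all its values above 0 were whole. This gave their fragments. That 362 of the 362 values were whole follows from this choice and is no separate check. Of the 10 gene lengths found so, 5 equal the RefSeq length less 1 base per exon. Fragments have no molecular identifiers and may be PCR copies.

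All steps used Python 3.11.15, numpy 2.4.6, pandas 2.3.3 and scipy 1.17.1. The recovery of totals and lengths, the stage difference and the rank correlation were tested on simulated data, and the other steps were not. Means are of log2(FPKM+1), with a pseudocount of 1. Intervals are exact binomial (Clopper-Pearson). Members, gene lists and rules were chosen with earlier results of these data known. Named are the 10 genes, up to 4 genes per list past a difference of 1 with the highest mean FPKM (otherwise the top 2), and the 3 nearest genes by rho. Left aside here were the repeat tables and embryos with 5 or 6 cells. Alternatives changed the threshold, pseudocount, scaling, summary, filter, correlation measure and set of blastomeres.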

Additional observations from a re-analysis of the deposited data

How the results depend on the processing

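No stage difference or correlation followed under the alternatives changed its direction past the counted size (a difference of 1 or a rho of 0.5). Shares of blastomeres have no such size, and for some of them the order of the stages turned with the limit. Lats2 was above an FPKM of 1 in 66.7% of 4-cell and 57.7% of 8-cell blastomeres, but above 5 in 20.8% and 42.3%. The number of genes counted by such shares also turned, as given above. Of the values that answer a comparison 10 moved and 49 did not, and of the single genes and pairs 23 moved and 186 did not. A gene could cross a stage difference of 1 and still count as not moved, as Lats1 did by the difference of medians (-1.03). The number of the 9 genes past a stage difference of 1 was 0. It was 2 with a pseudocount of 0.1 (Amot 2.02, Lats1 -1.31), 1 after rescaling each blastomere to a sum of 1 M (Amot 1.26), 2 by the ratio of mean FPKM (Amot 3.59, Lats1 -1.24) and 1 by medians (Lats1 -1.03). With a pseudocount of 0.1 the genes past 1 numbered 1351 higher at the 8-cell stage (620 with a pseudocount of 1) and 2228 higher at the 4-cell stage (919), and the median over all genes lay at -0.15. Pairs with a rho of 0.5 or more in size at the 4-cell stage numbered 1 (Wwtr1 and Lats2), 2 by Pearson's r (Tead4 and Nf2 at -0.67, Tfap2c and Lats1 at -0.52, without the first pair at -0.47), and 1 to 3 with 1 blastomere left out. At the 8-cell stage they numbered 0, 1 when the columns named NA were dropped, and from 0 to 1 over the sets lacking 1 blastomere. The cause of these moves was not tested. By rho, Tfap2c and Lats1 stood at -0.16 at the 4-cell stage, and at -0.11 without the gene-poor blastomeres. Yap1 had a stage difference near 0 with either sign, from -0.42 without the columns named NA to 0.17 by medians. The median of the 9 differences ran from 0.06 to 0.27 with 1 blastomere left out. The ratio of mean FPKM of Amot ran from 9.50 to 63.4 with 1 blastomere left out. This range and the limit of 3 fragments were added after the data were seen.

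No paired analysis was possible because no column name gives an embryo or a replicate number. Depth limits the low values. In the blastomere with 2.34 M fragments, 3 fragments stood for an FPKM of 0.166 (Amot) to 0.598 (Cdx2), so that a 0 there says less than elsewhere.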
